A study of Arabidopsis thaliana with 28 samples.

Results

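The photosynthetic electron transport chain of the chloroplast is built in part from proteins encoded in the nucleus, and 34 such nuclear genes of Arabidopsis thaliana are described here. They were chosen by locus identifier from their known products: 10 photosystem II genes, 12 photosystem I genes, 5 genes of electron carriers, 2 of ferredoxin-NADP reductase, 3 of the ATP synthase and 2 of cyclic electron flow. Antenna genes were not included, and the rule used no measured value. The 34 genes were rows of a table of 33557 genes. All of them passed the filter on low values described below. Each has an entry in the TAIR10.1 annotation. Poly(A) RNA-seq was done on Col-0 seedlings that had germinated after 1 h of white light and had then spent 3 days in darkness. They were then placed under blue, red and low far-red LEDs that imitate white light, at 100 µmol m−2 s−1. The groups were darkness, handled under a green safe light, and 15 min, 30 min, 1 h, 3 h, 6 h and 12 h of light, each in cotyledons together with the shoot apex and in hypocotyls, the embryonic stems. Roots had been removed, and tissues were separated after fixation in cold acetone. Each of the 14 groups had 2 biological replicates, A and B, which gave 28 libraries.

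Photosystem II splits water at the lumenal side of the thylakoid membrane and passes electrons through plastoquinone to the cytochrome b6f complex. Plastocyanin carries them on to photosystem I, which reduces ferredoxin at the stromal side, and ferredoxin-NADP reductase then makes NADPH. Protons moved across the membrane drive the ATP synthase, and cyclic flow returns electrons from ferredoxin to the chain. Seedlings grown in darkness hold etioplasts in their cotyledons, and light starts the building of thylakoids there, while the hypocotyl of a dark-grown seedling is an elongating stem with few green plastids.

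Levels are in FPKM, fragments scaled by the authors to transcript length and library size, and changes are differences of log2(FPKM + 1). Because of the added 1, a change understates that of a gene at a low level. A gene was called where the Benjamini-Hochberg adjusted p of the limma fit over 18678 genes was under 0.05 and the change was at least 1 in either direction. All comparisons of light with darkness in a tissue share the same 2 dark libraries, so that they are not independent of each other. The tissues were bulk samples, in which fewer cells of a type and less RNA per cell cannot be told apart.

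Relative depth ran from 0.615 to 1.72 across the libraries, and the fewest reads estimated for any of the 34 genes in any library were about 23.8, for PSBO2 at 2.23 FPKM in hypocotyls after 30 min (replicate A). Chloroplast-encoded genes took between 1.57% and 20.5% of all FPKM in the cotyledons, and between 0.0691% and 0.537% in the hypocotyls. In cotyledons after 1 h this share was 20.5% in replicate A and 4.23% in replicate B, and after 12 h it was 6.33% and 1.57%. Replicate B lay above replicate A in 34 of 34 genes in both of these groups. The median gap was 0.34 on the log2 scale after 1 h and 0.35 after 12 h. The part of the chloroplast share in that gap was not tested. Rescaling each library to its nuclear coding genes moved the median change of all genes tested in cotyledons after 6 h from 0.03 to -0.43, and that of the 34 genes from 1.98 to 1.38, so that the cotyledon changes below depend on the scale. Root marker genes were at or near 0, with a summed level of at most 1.47 FPKM over 9 genes in any library. The 4 YABBY genes that mark cotyledon and leaf identity had a summed level between 152 and 261 FPKM in every cotyledon library, and between 0.0569 and 5.34 FPKM in the hypocotyls. The 6 shoot apex genes summed to between 9.23 and 17.2 FPKM in the cotyledons and between 0.462 and 4.92 FPKM in the hypocotyls, where WUS was at 0 in every library. The 7 genes of the stomatal lineage summed to between 46.1 and 166 FPKM in the cotyledons and between 0.993 and 5.57 FPKM in the hypocotyls. The sample titles name stranded mRNA-seq, but no source used here says whether counting used strand. The annotated exons of PSAG, PSAH1, PSAE1, PSAH2 and LFNR1 overlap a gene on the other strand over 61.4%, 53.3%, 34.1%, 24.8% and 12.7% of their length, which leaves their levels uncertain.

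In darkness the genes were already abundant in cotyledons and low in hypocotyls. Across the 34 genes the dark mean in cotyledons ran from 77.1 FPKM for PGRL1A to 1416 FPKM for PSBR, with a median of 558 FPKM. In hypocotyls it ran from 2.21 FPKM for PSBO2 to 73.2 FPKM for PSAF, with a median of 28.7 FPKM. All 34 genes were called lower in hypocotyls, against 21.2% of all genes tested. The median difference was -4.15, and LFNR2 had the smallest difference, -1.30 (SE 0.18, adjusted p = 1.10e-06), followed by PETE1, -1.77 (SE 0.12, adjusted p = 2.93e-11). PSBO2 had the largest difference, -5.67 (SE 0.17, adjusted p = 6.10e-17). Hypocotyl means in darkness came to a median of 5.49% of cotyledon means, with extremes of 1.36% for PSBO2 and 40.0% for LFNR2.

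**Figure D1:**
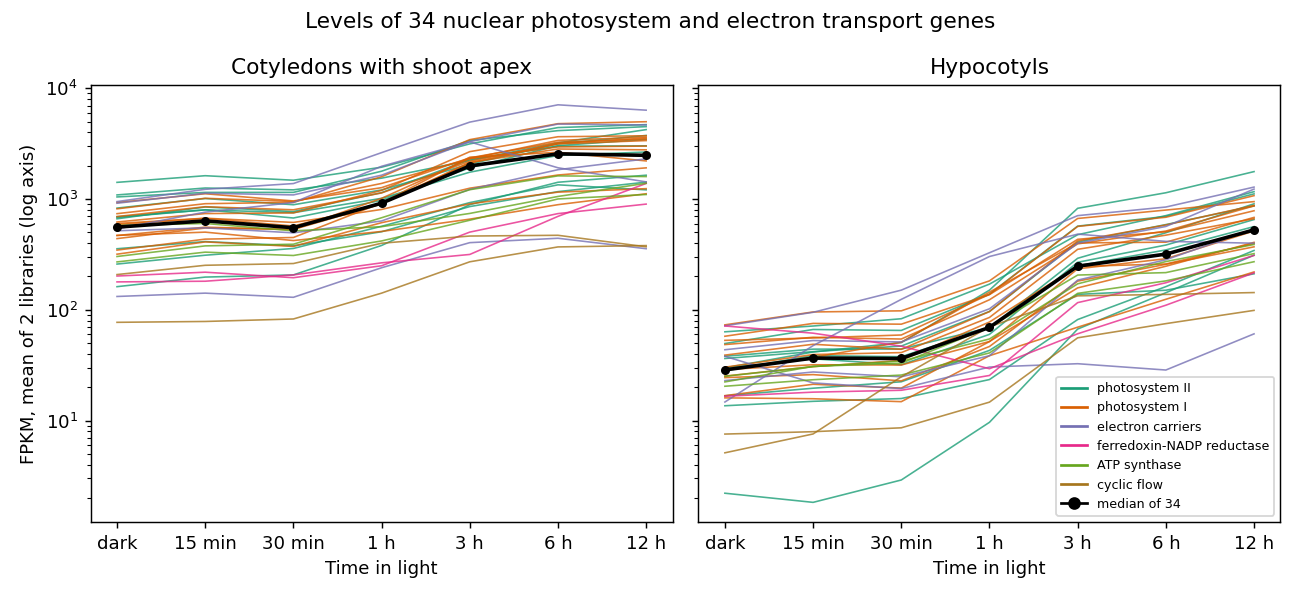
Mean FPKM of 2 libraries (log axis) for each of the 34 genes, coloured by role, with the median in black, against time in light (steps not to scale) in cotyledons with shoot apex (left) and hypocotyls (right). The median moves from 558 to 2486 FPKM in cotyledons and from 28.7 to 527 FPKM in hypocotyls, and the hypocotyl line that stays low is PETE1.

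In light nearly all of the genes rose in both tissues. From 3 h on most of them rose by more in hypocotyls on the log2 scale, from lower dark levels. In FPKM the median went from 558 in darkness to 2486 after 12 h in cotyledons, and from 28.7 to 527 in hypocotyls. In cotyledons 0 of 34 genes were called after 15 min, against 0.846% of all genes tested, and 0 after 30 min, against 3.37%. After 1 h 9 were called higher (6.56% of all genes tested were), after 3 h 31 (13.1%), after 6 h 32 (16.9%) and after 12 h 33 (15.1%). In hypocotyls 1 gene was called higher after 15 min (0.38%), 3 after 30 min (1.76%), 23 after 1 h (4.89%), 32 after 3 h (12.4%), 32 after 6 h (14.2%) and 33 after 12 h (16.6%). LFNR2 was the 1 gene called lower, in hypocotyls after 1 h (3.37%). By the adjusted p of limma alone, with no minimum change, 2 genes passed in cotyledons after 30 min (12.1% of all genes tested) and 31 after 1 h (39.7%). In hypocotyls 7 passed after 15 min (3.53%) and 16 after 30 min (11.2%). The median change in cotyledons was 0.76 after 1 h, 1.55 after 3 h, 1.98 after 6 h and 2.16 after 12 h. In hypocotyls it was 1.30, 3.14, 3.47 and 4.16 at the same times, while the median of all genes tested stayed within 0.04 of 0 in each of these comparisons. The count in cotyledons after 1 h rests on the replicates named above: it was 15 without replicate A and 3 without replicate B of that group. In cotyledons after 3 h the count was 20 on the scale of nuclear coding genes and 16 after quantile normalization. In cotyledons 25 of 34 genes had their highest mean after 12 h, 8 after 6 h and 1 after 3 h. This order rests on 1 library: with 12 h taken from replicate A alone, 10 genes were highest after 12 h and 23 after 6 h, and with replicate B alone 29 and 4, an alternative chosen after seeing the data. In hypocotyls 33 of 34 genes had their highest mean after 12 h, also with either 12 h replicate alone. FD1 was the gene that peaked after 3 h, and it did so in both tissues.

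**Figure D2:**
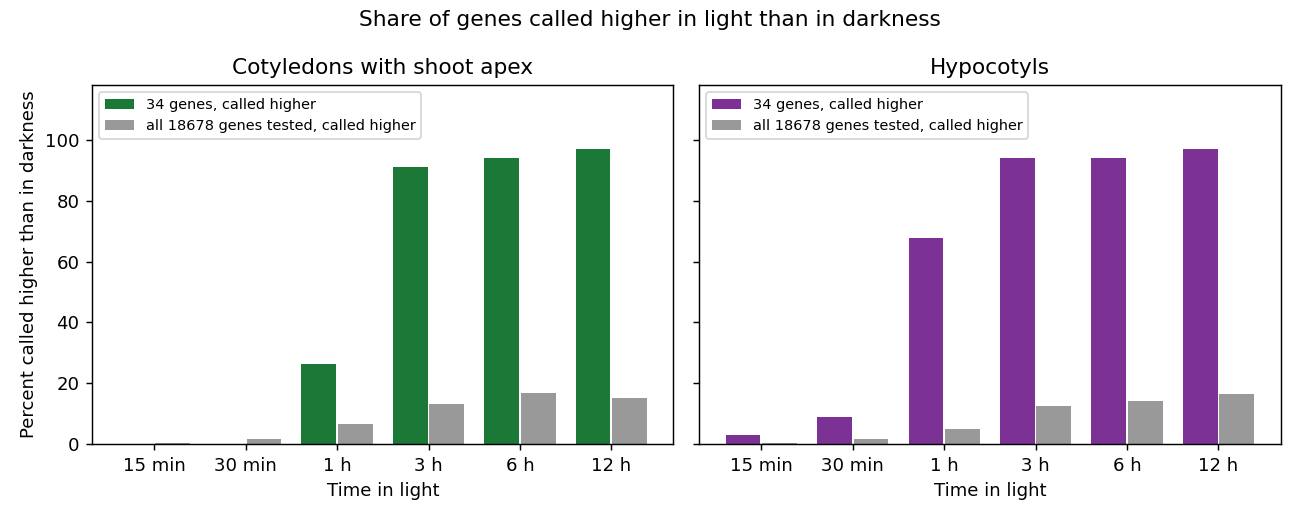
Percent of the 34 genes (coloured bars) and of all 18678 genes tested (grey bars) called higher than in darkness at each time in light, in cotyledons with shoot apex (left) and hypocotyls (right). The coloured bars exceed the grey ones from 1 h on in both tissues, and 23 of 34 genes were called in hypocotyls after 1 h against 9 in cotyledons.

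Photosystem II genes rose together from 3 h in cotyledons and mostly from 1 h in hypocotyls. Of the 10 genes, 2 were called higher in cotyledons after 1 h and 10 after 3 h, 6 h and 12 h. Of all genes tested, 6.56%, 13.1%, 16.9% and 15.1% were called higher there at these times. In hypocotyls 7 were called after 1 h and 10 from 3 h, against 4.89%, 12.4%, 14.2% and 16.6% of all genes tested. The median change after 6 h was 1.96 in cotyledons and 3.72 in hypocotyls. The summed level of the 10 genes went from 7199 FPKM in darkness to 30650 FPKM after 12 h in cotyledons and from 307.8 to 7913 FPKM in hypocotyls, 25.7-fold. PSBO1 (AT5G66570) and PSBO2 (AT3G50820) encode copies of the manganese-stabilising protein of the oxygen-evolving complex. PSBO1 stood at 1095 and 1087 FPKM in dark cotyledons, 1287 and 1232 after 15 min, 1186 and 1238 after 30 min, 1465 and 1627 after 1 h, 2385 and 2079 after 3 h, 3247 and 3194 after 6 h and 3648 and 4839 after 12 h. PSBO1 stood at 64.6 and 62.1 FPKM in dark hypocotyls, 73.1 and 69.7 after 15 min, 80.7 and 85.5 after 30 min, 162 and 179 after 1 h, 479.7 and 474 after 3 h, 733 and 686 after 6 h and 1109 and 1226 after 12 h. The light libraries of 3 h and later lay far above the dark ones in both tissues, with a change after 6 h of 1.56 (SE 0.11, adjusted p = 1.78e-10) in cotyledons, the smallest of the 10 genes there, and 3.46 (SE 0.11, adjusted p = 4.59e-16) in hypocotyls. PSBO2 stood at 164 and 160.0 FPKM in dark cotyledons, 195 and 199.9 after 15 min, 203 and 209.9 after 30 min, 324 and 438 after 1 h, 971 and 809.6 after 3 h, 1462 and 1378 after 6 h and 1362 and 1925 after 12 h. PSBO2 stood at 1.98 and 2.43 FPKM in dark hypocotyls, 1.89 and 1.76 after 15 min, 2.23 and 3.58 after 30 min, 8.63 and 10.7 after 1 h, 68.1 and 66 after 3 h, 152 and 133 after 6 h and 293 and 330.1 after 12 h. All libraries from 1 h on lay above both dark libraries in each tissue. PSBO2 had the lowest dark level of the 34 genes in hypocotyls and the largest change of the group in both tissues. That change was 3.12 (SE 0.17, adjusted p = 3.12e-12) in cotyledons and 5.49 (SE 0.17, adjusted p = 2.86e-16) in hypocotyls after 6 h, and after 12 h the hypocotyl mean was 141-fold the dark mean of 2.21 FPKM.

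PSBQ1 (AT4G21280) and PSBQ2 (AT4G05180) encode copies of another extrinsic protein of the oxygen-evolving complex. PSBQ1 stood at 666 and 719.7 FPKM in dark cotyledons, 809 and 789 after 15 min, 735 and 774 after 30 min, 909 and 1123 after 1 h, 1872 and 1628 after 3 h, 2503 and 2455 after 6 h and 2274 and 3053 after 12 h. PSBQ1 stood at 35.8 and 40.4 FPKM in dark hypocotyls, 47.8 and 40.5 after 15 min, 46.7 and 41.8 after 30 min, 63.1 and 75.1 after 1 h, 252 and 247 after 3 h, 359 and 336 after 6 h and 560.1 and 569.6 after 12 h. The dark and 15 min libraries were close together, and the libraries from 3 h on did not overlap them. PSBQ2 stood at 352 and 361 FPKM in dark cotyledons, 403 and 424 after 15 min, 345 and 413 after 30 min, 439.8 and 575 after 1 h, 896 and 816 after 3 h, 1182 and 1155 after 6 h and 1231 and 1615 after 12 h. PSBQ2 stood at 12.5 and 14.8 FPKM in dark hypocotyls, 16.7 and 13.1 after 15 min, 13.1 and 18.5 after 30 min, 20.8 and 26.1 after 1 h, 81.5 and 81.9 after 3 h, 169.9 and 154 after 6 h and 333 and 354 after 12 h. Both copies were first called at 3 h in each tissue, with changes after 6 h of 1.84 and 1.71 in cotyledons and 3.16 and 3.48 in hypocotyls. PSBY (AT1G67740) encodes a small membrane-spanning protein of photosystem II. PSBY stood at 252 and 266 FPKM in dark cotyledons, 312 and 311 after 15 min, 372 and 345 after 30 min, 517 and 620.0 after 1 h, 1021 and 839 after 3 h, 1376 and 1316 after 6 h and 992 and 1432 after 12 h. PSBY stood at 13.5 and 19.9 FPKM in dark hypocotyls, 22.6 and 16.6 after 15 min, 22.6 and 22.1 after 30 min, 42.8 and 43.2 after 1 h, 144 and 132 after 3 h, 158 and 143 after 6 h and 211 and 212 after 12 h. From 1 h on its libraries did not overlap the dark ones in either tissue. The change of PSBY after 6 h in hypocotyls, 3.12 (SE 0.17, adjusted p = 1.46e-12), was the smallest of the 10 genes there. PSBR (AT1G79040), whose product sits at the oxygen-evolving side, held the highest dark level in cotyledons and a middling one in hypocotyls, at 24.8 and 35.0 FPKM. It reached 1657 and 1886 FPKM in hypocotyls after 12 h, the highest mean of the 34 genes in that group, and its change was 5.86 (SE 0.13, adjusted p = 4.13e-18). The remaining genes encode the extrinsic protein PSBP1 (AT1G06680) and the small subunits PSBW (AT2G30570), PSBX (AT2G06520) and PSBTN (AT3G21055). Their changes after 6 h were 1.93, 2.18, 1.99 and 2.16 in cotyledons, in that order, and 4.09, 3.98, 3.79 and 3.65 in hypocotyls.

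Photosystem I genes also rose from 3 h in cotyledons and mostly from 1 h in hypocotyls, with PSAE2 as the late exception in cotyledons. Of the 12 genes, 4 were called higher in cotyledons after 1 h (6.56% of all genes tested were), 11 after 3 h (13.1%), 11 after 6 h (16.9%) and 12 after 12 h (15.1%). In hypocotyls the counts were 10 (4.89%), 12 (12.4%), 12 (14.2%) and 12 (16.6%). The median change after 6 h was 2.23 in cotyledons and 3.41 in hypocotyls. Summed levels went from 7039 FPKM in darkness to 35070 FPKM after 12 h in cotyledons and from 441.5 to 7813 FPKM in hypocotyls, 17.7-fold. PSAD1 (AT4G02770) and PSAD2 (AT1G03130) encode copies of a stromal subunit at which ferredoxin docks. PSAD1 stood at 808 and 825 FPKM in dark cotyledons, 1049 and 986 after 15 min, 920.4 and 983 after 30 min, 1221 and 1549 after 1 h, 2451 and 2185 after 3 h, 3427 and 3352 after 6 h and 3266 and 3997 after 12 h. PSAD1 stood at 59.7 and 55.8 FPKM in dark hypocotyls, 78.3 and 72.5 after 15 min, 74.4 and 74 after 30 min, 126 and 149 after 1 h, 426 and 441 after 3 h, 521 and 492 after 6 h and 709 and 861 after 12 h. PSAD1 libraries from 1 h on lay above the dark libraries in both tissues. PSAD2 stood at 303 and 334 FPKM in dark cotyledons, 419 and 402 after 15 min, 354 and 394 after 30 min, 539.9 and 685 after 1 h, 979 and 832 after 3 h, 1150.1 and 1162 after 6 h and 1085 and 1400.3 after 12 h. PSAD2 stood at 15.6 and 16.5 FPKM in dark hypocotyls, 15.3 and 16.2 after 15 min, 13.2 and 16.4 after 30 min, 33.6 and 43.4 after 1 h, 66.9 and 72.4 after 3 h, 124 and 125 after 6 h and 211 and 228 after 12 h. PSAD2 was the lower copy in each library, and its change after 6 h was 1.86 (SE 0.14, adjusted p = 4.20e-10) in cotyledons and 2.88 (SE 0.14, adjusted p = 2.70e-13) in hypocotyls, the smallest of the 12 genes there.

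PSAE1 (AT4G28750) and PSAE2 (AT2G20260) encode copies of another stromal subunit near the ferredoxin site. PSAE1 stood at 535 and 643 FPKM in dark cotyledons, 645 and 695 after 15 min, 525 and 618 after 30 min, 746 and 1084 after 1 h, 2131 and 2160.4 after 3 h, 2833 and 2836 after 6 h and 2727 and 2846 after 12 h. PSAE1 stood at 14.6 and 19 FPKM in dark hypocotyls, 22.7 and 19.8 after 15 min, 19.9 and 19.4 after 30 min, 46.8 and 56.4 after 1 h, 217 and 252 after 3 h, 283 and 296 after 6 h and 475 and 556 after 12 h. Its libraries from 1 h on were above the dark ones in both tissues, and those of 15 min and 30 min were close to them. PSAE1 had the largest change of the 12 genes in hypocotyls after 6 h, 4.04 (SE 0.15, adjusted p = 5.98e-15). PSAE2 stood at 488 and 452 FPKM in dark cotyledons, 534 and 473 after 15 min, 417 and 428 after 30 min, 449 and 572 after 1 h, 693 and 626 after 3 h, 897 and 884 after 6 h and 1017 and 1219 after 12 h. PSAE2 stood at 23.3 and 34.4 FPKM in dark hypocotyls, 31.5 and 32.3 after 15 min, 29 and 34.5 after 30 min, 50.4 and 53.1 after 1 h, 158 and 158 after 3 h, 244 and 252 after 6 h and 386 and 427 after 12 h. The libraries stood clear of darkness from 3 h in cotyledons and from 1 h in hypocotyls. In cotyledons PSAE2 reached the threshold only after 12 h, and its change of 0.92 (SE 0.14, adjusted p = 1.02e-05) after 6 h was the smallest of the 12 genes. In hypocotyls it was called from 3 h on, with 3.08 (SE 0.14, adjusted p = 1.28e-13) after 6 h. PSAH1 (AT3G16140) and PSAH2 (AT1G52230) encode copies of a subunit at the side where mobile antenna binds. PSAH1 stood at 578 and 627 FPKM in dark cotyledons, 688 and 657 after 15 min, 608 and 624 after 30 min, 686 and 927 after 1 h, 1374 and 1136 after 3 h, 1655 and 1646 after 6 h and 1602 and 2228 after 12 h. PSAH1 stood at 22.4 and 26.5 FPKM in dark hypocotyls, 26.4 and 25.6 after 15 min, 22.1 and 23.6 after 30 min, 43.1 and 50.2 after 1 h, 187 and 177 after 3 h, 259.9 and 255 after 6 h and 381 and 361 after 12 h. The rise of PSAH1 was called from 3 h on in both tissues. PSAH2 stood at 301 and 391 FPKM in dark cotyledons, 433 and 437 after 15 min, 425 and 475 after 30 min, 771 and 1073 after 1 h, 2536 and 2244 after 3 h, 2633 and 2661 after 6 h and 1977 and 2447 after 12 h. PSAH2 stood at 24.9 and 25.5 FPKM in dark hypocotyls, 30.4 and 30.9 after 15 min, 33.8 and 36.1 after 30 min, 70.6 and 84.7 after 1 h, 249.9 and 243 after 3 h, 263 and 256 after 6 h and 387 and 409 after 12 h. Every light library was above both dark libraries of its tissue. PSAH2 had the largest change of the 12 genes in cotyledons after 6 h, 2.94 (SE 0.14, adjusted p = 4.85e-13), and 3.31 in hypocotyls. Beside these pairs, PSAF (AT1G31330) and PSAN (AT5G64040), whose products meet plastocyanin at the lumenal side, changed by 2.70 and 2.86 in cotyledons and by 3.43 and 3.38 in hypocotyls after 6 h. The membrane subunits PSAG (AT1G55670) and PSAK (AT1G30380) changed by 1.81 and 2.66 in cotyledons and by 3.87 and 3.80 in hypocotyls. For PSAL (AT4G12800) and PSAO (AT1G08380), at the side of the mobile antenna, the values were 2.18 and 2.56 in cotyledons and 3.92 and 3.68 in hypocotyls.

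Among the 5 genes of electron carriers, FD1 rose early and PETE1 was not called in hypocotyls at any time, while the other 3 were called higher in both tissues by 3 h. FD1 (AT1G10960) and FD2 (AT1G60950) encode the leaf ferredoxins, the stromal acceptors of photosystem I, of which FD2 is known as the major form. FD1 stood at 466 and 611 FPKM in dark cotyledons, 744 and 781 after 15 min, 912 and 951 after 30 min, 1723 and 2233 after 1 h, 3486 and 3088 after 3 h, 1918 and 1919 after 6 h and 1222 and 1639 after 12 h. FD1 stood at 12.9 and 16.5 FPKM in dark hypocotyls, 44.6 and 50.4 after 15 min, 121 and 127 after 30 min, 306 and 301 after 1 h, 478 and 487 after 3 h, 413 and 417 after 6 h and 388 and 411 after 12 h. In hypocotyls the FD1 libraries of each time up to 3 h lay above those of the time before, without overlap, and FD1 was the 1 gene of the 34 called after 15 min, at 1.63 (SE 0.15, adjusted p = 2.38e-07). Its change was 3.00 (SE 0.15, adjusted p = 4.01e-12) after 30 min and 4.28 after 1 h. In cotyledons FD1 changed by 0.80 (SE 0.15, adjusted p = 5.26e-04) after 30 min, under the threshold of 1, and by 1.88 after 1 h and 2.62 after 3 h, and it stood lower after 6 h and 12 h. FD1 overlaps the neighbouring gene AT1G10950 on the same strand over 3.6% of its stretches of 50 nt. FD2 stood at 871 and 1028 FPKM in dark cotyledons, 1224 and 1228 after 15 min, 1353 and 1411 after 30 min, 2431 and 2826 after 1 h, 5374 and 4542 after 3 h, 7012 and 7199 after 6 h and 5778 and 6932 after 12 h. FD2 stood at 68.3 and 75.2 FPKM in dark hypocotyls, 99.2 and 90.8 after 15 min, 153 and 148 after 30 min, 319 and 336 after 1 h, 669.7 and 749 after 3 h, 861 and 835 after 6 h and 1193 and 1375 after 12 h. No light library overlapped the dark ones, from 15 min on. FD2 had the highest mean of the 34 genes in cotyledons from 1 h on, 7106 FPKM after 6 h, and was called in hypocotyls from 30 min on, with 1.06 (SE 0.12, adjusted p = 9.44e-07) at that time. This call was lost without dark hypocotyl replicate A, where the change was 0.99.

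PETE1 (AT1G76100) and PETE2 (AT1G20340) encode plastocyanin, the lumenal copper protein between cytochrome b6f and photosystem I, and PETE2 is known as the major form. PETE1 stood at 125 and 139 FPKM in dark cotyledons, 142 and 141 after 15 min, 121 and 139 after 30 min, 210.0 and 269.9 after 1 h, 439 and 369.7 after 3 h, 451 and 435 after 6 h and 341 and 371 after 12 h. PETE1 stood at 35.4 and 40.7 FPKM in dark hypocotyls, 22.3 and 21.4 after 15 min, 21.3 and 17.6 after 30 min, 29.6 and 31.2 after 1 h, 31.3 and 33.9 after 3 h, 28.7 and 28.5 after 6 h and 60.2 and 61.2 after 12 h. In cotyledons PETE1 rose, with 1.74 (SE 0.12, adjusted p = 1.22e-10) after 6 h. On the scale of nuclear coding genes its cotyledon change after 12 h, and that of FD1, was under the threshold, at 0.83 and 0.81. After quantile normalization both were too, at 0.83 and 0.67, as was the PETE1 change after 6 h, at 0.99. In hypocotyls both libraries of every light time up to 6 h lay below both dark libraries, and both 12 h libraries lay above them. The hypocotyl change was -0.77 (SE 0.12, adjusted p = 3.59e-04) after 15 min, -0.94 (SE 0.12, adjusted p = 8.27e-06) after 30 min, -0.40 (SE 0.12, adjusted p = 0.00757) after 6 h and 0.66 (SE 0.12, adjusted p = 6.17e-05) after 12 h. PETE1 was called in hypocotyls at no time, since each change was under 1, and it was the 1 gene of the 34 of which this held. At 30 min this depends on the libraries: the change was -1.03 without dark replicate A and -1.07 without replicate A of that time. PETE2 stood at 909 and 926 FPKM in dark cotyledons, 1131 and 1128 after 15 min, 1079 and 1104 after 30 min, 1434 and 1855 after 1 h, 3462 and 3141 after 3 h, 4832 and 4694 after 6 h and 4072 and 5282 after 12 h. PETE2 stood at 44.6 and 42.7 FPKM in dark hypocotyls, 53.5 and 52.1 after 15 min, 50.1 and 52.5 after 30 min, 95.5 and 109 after 1 h, 408 and 391 after 3 h, 575 and 557 after 6 h and 1109 and 1355 after 12 h. Light and dark libraries of PETE2 did not overlap at any time in either tissue. PETE2 was called in cotyledons from 3 h and in hypocotyls from 1 h, with 2.38 (SE 0.13, adjusted p = 2.12e-12) and 3.67 (SE 0.13, adjusted p = 1.11e-15) after 6 h. PETC (AT4G03280), the Rieske iron-sulfur protein of cytochrome b6f, was called from 3 h in both tissues, with 1.83 in cotyledons and 3.57 in hypocotyls after 6 h.

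**Figure D3:**
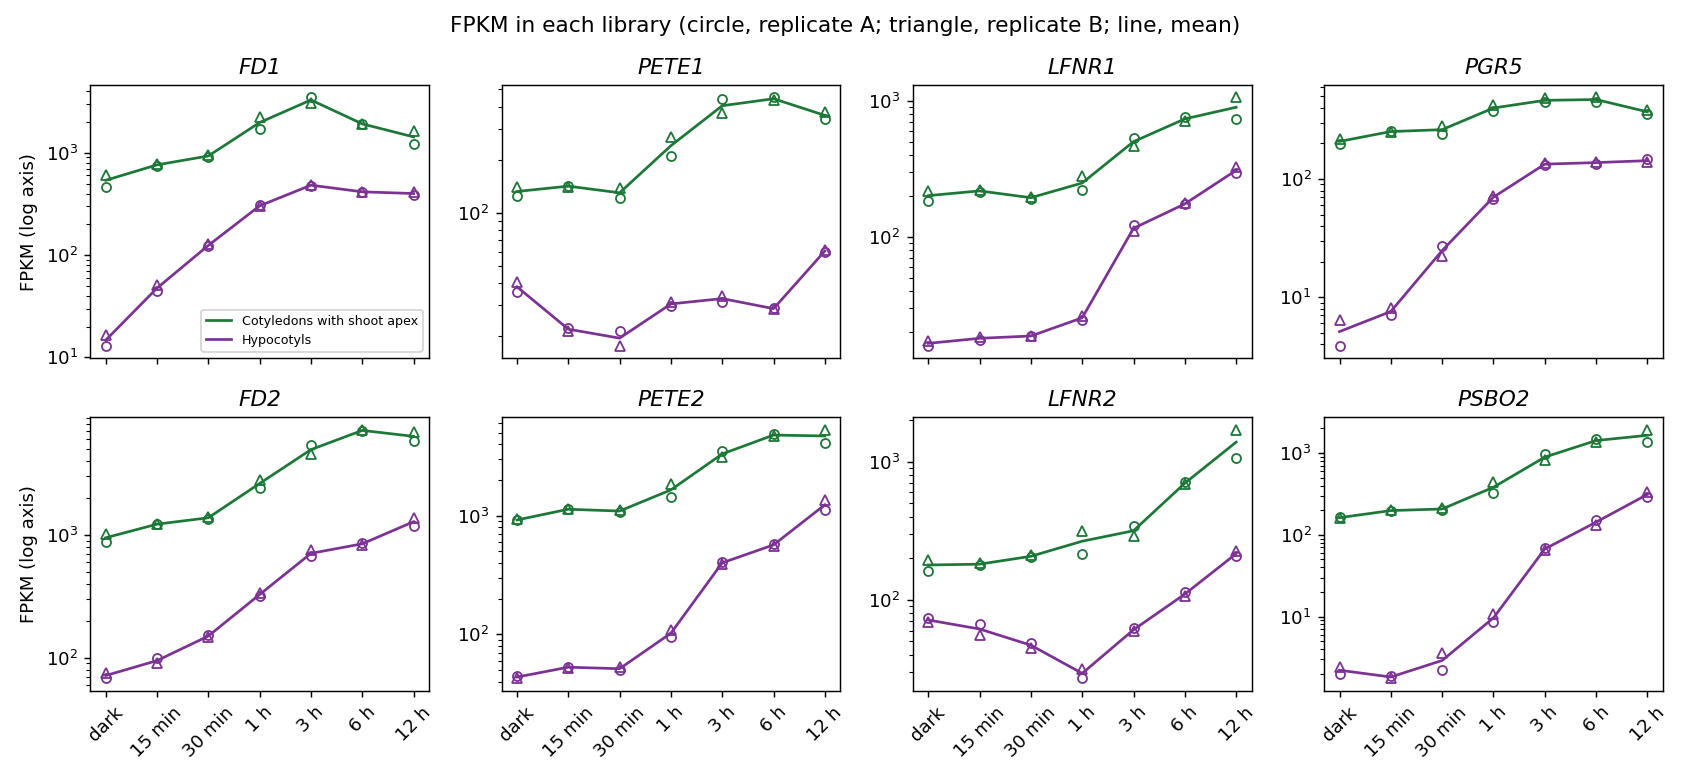
FPKM (log axis) in every library against time in light (steps not to scale) for FD1, FD2, PETE1, PETE2, LFNR1, LFNR2, PGR5 and PSBO2, with cotyledons in green, hypocotyls in purple and lines through the means of 2 libraries. PETE1 lies below its dark level in hypocotyls up to 6 h and LFNR2 dips to 27.1 and 31.7 FPKM after 1 h, while FD1 climbs from 12.9 and 16.5 to 478 and 487 FPKM after 3 h.

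LFNR1 (AT5G66190) and LFNR2 (AT1G20020) encode the leaf ferredoxin-NADP reductases, and LFNR1 is known to be needed for the attachment of LFNR2 to the membrane. LFNR1 stood at 186 and 218 FPKM in dark cotyledons, 214 and 224 after 15 min, 192 and 198 after 30 min, 221 and 279 after 1 h, 536 and 471 after 3 h, 763 and 717 after 6 h and 737 and 1065 after 12 h. LFNR1 stood at 15.9 and 17.3 FPKM in dark hypocotyls, 17.6 and 18.5 after 15 min, 18.7 and 18.8 after 30 min, 24.6 and 26.5 after 1 h, 122 and 110.3 after 3 h, 174 and 177 after 6 h and 295 and 325 after 12 h. LFNR1 libraries from 3 h on lay above all earlier ones in both tissues, with 1.87 (SE 0.14, adjusted p = 2.71e-10) and 3.33 (SE 0.14, adjusted p = 1.79e-14) after 6 h in cotyledons and hypocotyls. LFNR2 stood at 162 and 195 FPKM in dark cotyledons, 178 and 184 after 15 min, 204 and 209.8 after 30 min, 216 and 316 after 1 h, 344 and 289 after 3 h, 713 and 684 after 6 h and 1067 and 1703 after 12 h. LFNR2 stood at 73.6 and 69.4 FPKM in dark hypocotyls, 67 and 56 after 15 min, 48.8 and 45.2 after 30 min, 27.1 and 31.7 after 1 h, 62.3 and 59.3 after 3 h, 114 and 107 after 6 h and 208 and 224 after 12 h. In hypocotyls LFNR2 fell, with a change of -1.26 (SE 0.18, adjusted p = 1.09e-05) after 1 h, both libraries lying below all others of that tissue. It was higher after 3 h than after 1 h, by 1.03 (SE 0.18, adjusted p = 8.31e-05), and after 12 h it stood above darkness, at 1.58 (SE 0.18, adjusted p = 1.12e-07). In cotyledons it was called from 6 h on, with 1.97 (SE 0.18, adjusted p = 5.91e-09), and after 12 h its replicates lay far apart, at 1067 and 1703 FPKM.

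The ATP synthase genes encode the gamma subunit ATPC1 (AT4G04640), the delta subunit ATPD (AT4G09650) and the peripheral stalk subunit ATPG (AT4G32260). ATPC1 stood at 258 and 283 FPKM in dark cotyledons, 339 and 325 after 15 min, 302 and 317 after 30 min, 405 and 432 after 1 h, 669 and 620.0 after 3 h, 1006 and 1001 after 6 h and 885 and 1315 after 12 h. ATPC1 stood at 20.5 and 20.3 FPKM in dark hypocotyls, 22.5 and 24.2 after 15 min, 23.9 and 27.7 after 30 min, 39.2 and 42.5 after 1 h, 146 and 136 after 3 h, 185 and 179.8 after 6 h and 264 and 280.3 after 12 h. Even the 15 min libraries lay slightly above the dark ones in both tissues. ATPC1 was called from 3 h in both tissues and had the smallest hypocotyl change of the 3 genes after 6 h, 3.10 (SE 0.13, adjusted p = 1.58e-14). ATPD stood at 296 and 310.4 FPKM in dark cotyledons, 383 and 373 after 15 min, 381 and 402 after 30 min, 595 and 762 after 1 h, 1309 and 1122 after 3 h, 1648 and 1594 after 6 h and 1369 and 1827 after 12 h. ATPD stood at 23.2 and 21.5 FPKM in dark hypocotyls, 31 and 30.7 after 15 min, 33.9 and 32 after 30 min, 66.2 and 73.2 after 1 h, 215 and 198 after 3 h, 221 and 213 after 6 h and 318 and 326 after 12 h. As for the gamma subunit, no light library overlapped darkness. ATPD was called from 1 h in both tissues and had the largest cotyledon change of the 3, 2.42 (SE 0.12, adjusted p = 1.21e-12). ATPG stood at 518 and 637 FPKM in dark cotyledons, 609 and 595 after 15 min, 514 and 519.9 after 30 min, 517 and 609.5 after 1 h, 792 and 692 after 3 h, 1045 and 1069 after 6 h and 1205 and 1574 after 12 h. ATPG stood at 24.2 and 26 FPKM in dark hypocotyls, 30.4 and 31.1 after 15 min, 34.7 and 34.1 after 30 min, 53 and 56.1 after 1 h, 172 and 172 after 3 h, 268 and 278 after 6 h and 365 and 413 after 12 h. In cotyledons the ATPG libraries up to 1 h did not leave the range of darkness or lay just below it, and the gene was called only after 12 h, at 1.26 (SE 0.12, adjusted p = 1.51e-08). This call was lost on the scale of nuclear coding genes, at 0.66, and after quantile normalization, at 0.52. In hypocotyls ATPG was called from 1 h on and reached 3.39 (SE 0.12, adjusted p = 1.69e-15) after 6 h, the largest of the 3.

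PGR5 (AT2G05620) and PGRL1A (AT4G22890) encode partners that cyclic flow from ferredoxin to plastoquinone depends on. PGR5 stood at 199 and 218 FPKM in dark cotyledons, 257 and 248 after 15 min, 240.4 and 283 after 30 min, 375 and 424 after 1 h, 447 and 481 after 3 h, 451 and 492 after 6 h and 357 and 385 after 12 h. PGR5 stood at 3.87 and 6.35 FPKM in dark hypocotyls, 7.07 and 8.06 after 15 min, 27.2 and 22.4 after 30 min, 68.2 and 72.3 after 1 h, 132 and 136 after 3 h, 135 and 140.3 after 6 h and 147 and 139 after 12 h. With FD1 and FD2, PGR5 was among the 3 genes called in hypocotyls after 30 min: both 30 min libraries lay well above all libraries of 15 min and darkness. The change was 2.1 (SE 0.14, adjusted p = 6.15e-10) after 30 min and 3.57 (SE 0.14, adjusted p = 5.30e-14) after 1 h, and from 3 h on the level differed little between times. In cotyledons PGR5 was called after 3 h and 6 h, with 1.17 (SE 0.14, adjusted p = 3.64e-07), and not after 12 h, at 0.83 (SE 0.14, adjusted p = 3.67e-05). Both cotyledon calls were lost on the scale of nuclear coding genes, at 0.72 after 3 h and 0.57 after 6 h, and after quantile normalization, at 0.58 and 0.45. PGRL1A stood at 70.1 and 84.1 FPKM in dark cotyledons, 78.8 and 78.2 after 15 min, 81.9 and 83.4 after 30 min, 125 and 158 after 1 h, 295 and 248 after 3 h, 377 and 363 after 6 h and 309.8 and 451 after 12 h. PGRL1A stood at 6.45 and 8.65 FPKM in dark hypocotyls, 8.23 and 7.63 after 15 min, 8.18 and 9.02 after 30 min, 13.2 and 16.1 after 1 h, 57.2 and 54.6 after 3 h, 78.1 and 72 after 6 h and 100.5 and 97.2 after 12 h. Libraries up to 30 min overlapped or nearly met the dark ones, and later ones lay above. PGRL1A was called from 3 h in both tissues, with 2.25 (SE 0.16, adjusted p = 1.24e-10) in cotyledons and 3.16 (SE 0.16, adjusted p = 3.44e-13) in hypocotyls after 6 h.

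The tissues were then compared in the size of their response, as the hypocotyl change minus the cotyledon change. The difference was called higher in hypocotyls for 1 gene after 15 min (0.23% of all genes tested), 2 after 30 min (1.15%), 5 after 1 h (4.86%), 26 after 3 h (15.5%), 25 after 6 h (17.8%) and 31 after 12 h (16.5%). It was called lower for 2 genes after 1 h (5.04%), 3 h (13.5%) and 6 h (19.1%) and for 1 after 12 h (17.3%). The adjusted p alone passed for 2 genes after 15 min (0.862%), 5 after 30 min (5.13%) and 17 after 1 h (26.6%). FD1 was the gene of 15 min, at 1.12 (SE 0.21, adjusted p = 0.00708), a call that was lost without dark cotyledon replicate B (0.93) or dark hypocotyl replicate A (0.96) and after quantile normalization, where it was 1.16 and did not pass the adjusted p. FD1 (2.20) and PGR5 (1.78) made up the pair of 30 min. After 1 h they were joined by PSBR, PSAK and ATPG, and the genes with the largest differences after 6 h were PSBR with 3.58 (SE 0.19, adjusted p = 3.69e-12), PGR5 with 3.36 (SE 0.20, adjusted p = 1.88e-11) and FD1 with 2.89 (SE 0.21, adjusted p = 2.65e-10). PETE1 and LFNR2 were the genes called lower. PETE1 differed by -1.16 (SE 0.17, adjusted p = 3.42e-05) after 1 h and -2.14 (SE 0.17, adjusted p = 1.37e-09) after 6 h. LFNR2 differed by -1.81 (SE 0.25, adjusted p = 1.72e-05) after 1 h and -1.33 (SE 0.25, adjusted p = 1.14e-04) after 12 h. On the scale of nuclear coding genes the LFNR2 difference was -0.58 after 3 h, -0.60 after 6 h and -0.62 after 12 h, under the threshold, and after quantile normalization it was -0.58, -0.39 and -0.40. Calls after 1 h were lost for PETE1 without cotyledon 1 h replicate B (-0.98) or after quantile normalization (-0.89) and for ATPG without dark cotyledon replicate B (0.97). The LFNR2 call after 3 h was lost without dark cotyledon replicate A (-0.92) or cotyledon 3 h replicate A (-0.93). Its call after 12 h was lost without cotyledon 12 h replicate B (-0.996). PSAF was the gene not called after 12 h beside PETE1, with 0.93 (SE 0.17, adjusted p = 1.02e-04) and -0.76 (SE 0.17, adjusted p = 6.54e-04).

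After 12 h all 34 genes were still called lower in hypocotyls than in cotyledons, against 18.4% of all genes tested, and the median difference was -2.07. Hypocotyl means came to a median of 9.07% of cotyledon means after 1 h, 16.9% after 3 h, 15.7% after 6 h and 23.7% after 12 h, where they ran from 15.6% for LFNR2 to 38.6% for PGR5. LFNR2, the gene with the highest hypocotyl share in darkness, thus had the lowest after 12 h. The summed level of the 4 YABBY genes in hypocotyls was 0.0845% of that in cotyledons in darkness, 1.12% after 6 h and 1.82% after 12 h, below every one of the 34 genes at these times. For the 6 shoot apex genes it was 6.67% in darkness, 35.5% after 6 h and 29.9% after 12 h. From 1 h to 3 h, when the median of the 34 genes went from 9.07% to 16.9%, the shoot apex share went from 6.03% to 29.7%. The shoot apex sums in hypocotyls behind this were 0.884 and 3.30 FPKM. Earlier, the shoot apex share was 14.5% after 15 min and 6.38% after 30 min, when the median of the 34 genes was 5.72% and 6.76%. For the 7 stomatal lineage genes the share was 3.13% in darkness, 3.46% after 6 h and 3.68% after 12 h. The part of cells of the cotyledons or the shoot apex in the hypocotyl levels was not tested.

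**Figure D4:**
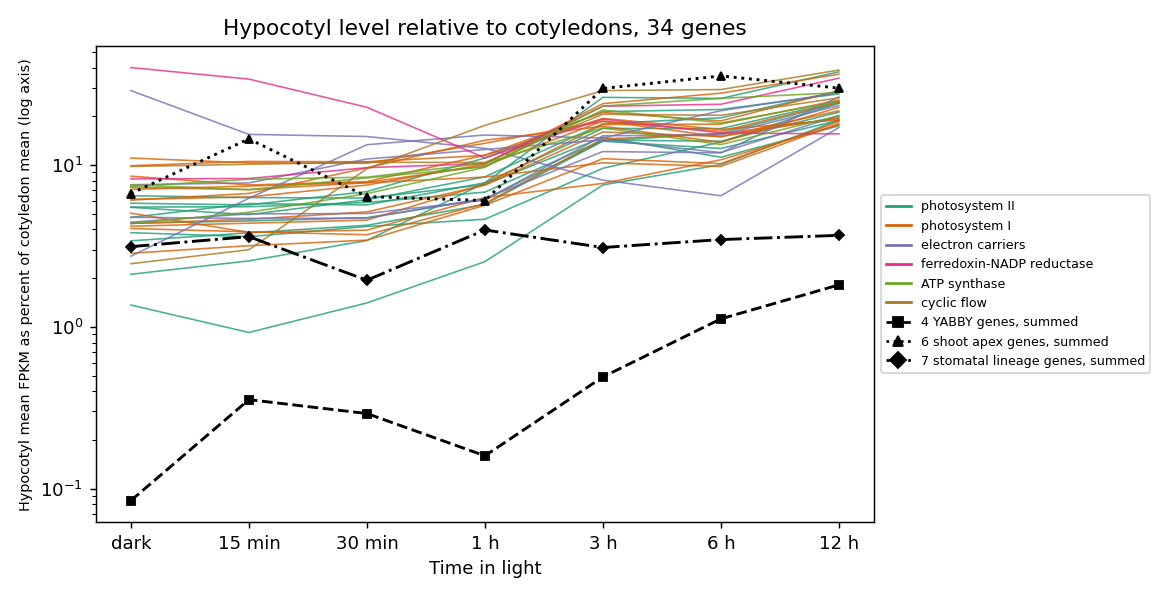
Hypocotyl mean FPKM as a percent of the cotyledon mean (log axis) for each of the 34 genes, coloured by role, against time in light (steps not to scale), with the summed levels of 4 YABBY, 6 shoot apex and 7 stomatal lineage genes as black lines. From darkness to 12 h the median of the 34 genes moves from 5.49% to 23.7%, the YABBY line from 0.0845% to 1.82%, the shoot apex line from 6.67% to 29.9% and the stomatal lineage line from 3.13% to 3.68%.

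From 1 h on, the step between 1 h and 3 h was the one in which most genes were called. In hypocotyls 30 of 34 genes were called higher after 3 h than after 1 h (7.23% of all genes tested were), 1 after 6 h than after 3 h (2.64%) and 4 after 12 h than after 6 h (1.75%). The gene called from 3 h to 6 h was PSBO2 (1.08), and those from 6 h to 12 h were PSBO2 (1.12), PSBQ2 (1.08), PETE1 (1.06) and PETE2 (1.11). In cotyledons 9 genes were called from 1 h to 3 h (5.47%), 1 from 3 h to 6 h (2.7%) and 0 from 6 h to 12 h, against 3.62% of all genes tested in either direction. The limma adjusted p alone was under 0.05 for 32 (46.6%), 28 (32%) and 5 genes (28.1%) in these cotyledon steps, and for 22 (32.2%) and 30 (27.2%) in the hypocotyl steps to 6 h and 12 h. The gene of the middle step was LFNR2, at 1.15 (SE 0.18, adjusted p = 6.87e-05). The count of 9 was 3 without cotyledon 1 h replicate A, 18 without replicate B of that group and 15 without cotyledon 3 h replicate B, and it was 1 on the scale of nuclear coding genes. The hypocotyl count of 1 from 3 h to 6 h was 0 without 6 h replicate A and 2 without 6 h replicate B. In cotyledons 1 gene was called from 6 h to 12 h without 12 h replicate A. The hypocotyl count of 4 from 6 h to 12 h was 7 without 12 h replicate A.

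For 8 proteins the 34 genes held a pair of near-duplicate copies, which shared no stretch of 50 nt with each other. The share of the first copy in the summed FPKM of its pair was compared between tissues on the log2 scale, with an exact 2-sided permutation test within times, adjusted over the 8 pairs. In 5 pairs the ratio differed between the tissues. PSBO1 made up 87.1% of its pair in dark cotyledons and 96.6% in dark hypocotyls, and 72.2% and 78.9% after 12 h. The mean log2 ratio of PSBO1 to PSBO2 was 1.98 in cotyledons and 3.50 in hypocotyls, higher in hypocotyls without overlap at 7 of 7 times (difference 1.52, exact permutation adjusted p = 1.91e-05, from the smallest raw p that the 279936 arrangements can give). The ratio of PSAD1 to PSAD2 was 1.38 in cotyledons and 2.07 in hypocotyls, also without overlap at 7 of 7 times (0.69, exact permutation adjusted p = 1.91e-05). PSAE1 to PSAE2 went the other way, with 0.96 in cotyledons and -0.12 in hypocotyls, lower in hypocotyls at 7 of 7 times (-1.08, exact permutation adjusted p = 1.91e-05). The share of PSAE1 went from 55.5% to 71.4% in cotyledons and from 37% to 55.9% in hypocotyls between darkness and 12 h. Exons of PSAE1 and PSAE2 overlap a gene on the other strand over 34.1% and 10.4% of their length. This leaves the levels of the pair uncertain. PSBQ1 to PSBQ2 differed by 0.34 (exact permutation adjusted p = 0.00103), higher in hypocotyls at 5 times and lower at 1. This call was lost without replicate A or replicate B (exact permutation adjusted p = 0.125 each).

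PETE1 to PETE2 differed by 0.73 on average (exact permutation adjusted p = 0.0393), but the sign changed with time, since hypocotyls lay higher at 4 times and lower at 3 without overlap. This call, too, was lost without either replicate (exact permutation adjusted p = 0.35 each). PETE1 made up 46.5% of the plastocyanin pair in dark hypocotyls, 29.3% after 15 min, 23% after 1 h, 7.55% after 3 h and 4.74% after 12 h, and in cotyledons it went from 12.6% to 7.15%. The ratios of PSAH1 to PSAH2, FD1 to FD2 and LFNR1 to LFNR2 did not pass the test between tissues, with mean differences of -0.29, 0.04 and -0.51 (exact permutation adjusted p = 0.0888, 0.76 and 0.0888). In these pairs, too, the order of the tissues changed with time. FD1 made up 16.9% of the ferredoxin pair in dark hypocotyls, 48% after 1 h and 23.8% after 12 h, against 36.1%, 42.8% and 18.3% in cotyledons. LFNR1 made up 18.8% of the reductase pair in dark hypocotyls, 46.6% after 1 h and 65.6% after 3 h, against 53.1%, 48.8% and 61.5% in cotyledons. PSAH1 made up 63.7% of its pair in dark cotyledons and 34.4% after 3 h, against 49.1% and 42.4% in hypocotyls. The levels of both PSAH copies are uncertain because of the overlap with genes on the other strand.

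Within a tissue, the 12 light libraries were also set against the 2 dark ones for each pair, a test that can give no p below 0.011 with its 91 arrangements. In hypocotyls the log2 ratio of PETE1 to PETE2 was -0.20 in darkness and -2.74 in light, that of FD1 to FD2 was -2.22 and -0.77, and that of LFNR1 to LFNR2 was -2.04 and -0.18. Each of these 3 had the smallest p possible and an exact permutation adjusted p of 0.0586 over 16 tests, which misses the threshold. A pair at that smallest p could pass only if more of the 16 tests also had low p-values. The miss therefore decides nothing about these 3 pairs. The next values were those of PSBO1 to PSBO2 and PSAH1 to PSAH2 in cotyledons, which changed by -0.89 and -0.97 (exact permutation adjusted p = 0.0703 for each).

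**Figure D5:**
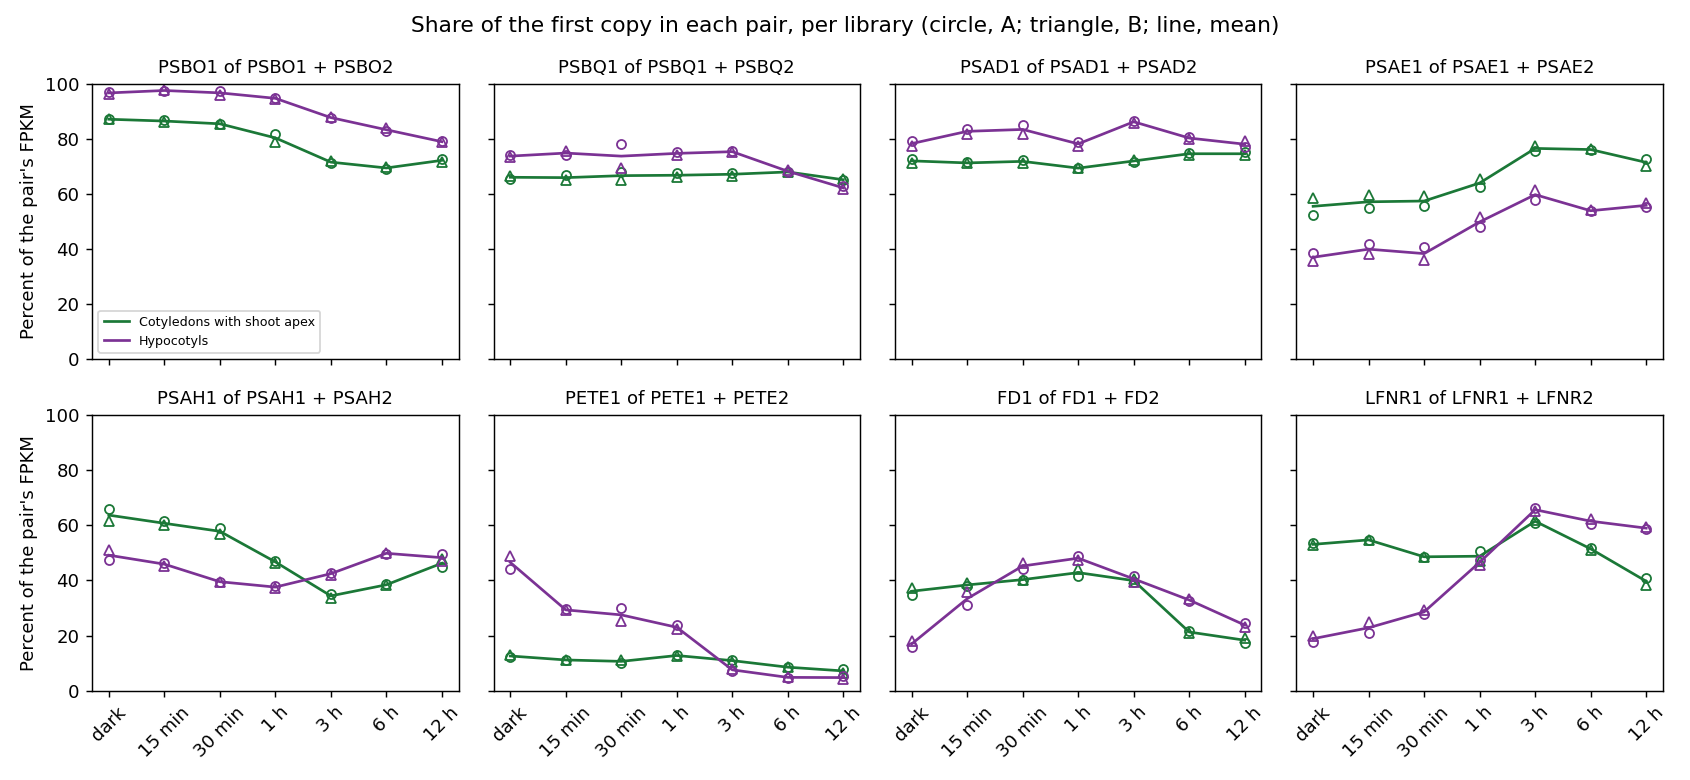
Percent of the summed FPKM of each pair that the first copy made up, in every library, against time in light (steps not to scale), with cotyledons in green, hypocotyls in purple and lines through the means of 2 libraries. PSBO1, PSAD1 and PSAE1 keep the tissues apart at all 7 times, whereas the lines of PSBQ1, PETE1, FD1, LFNR1 and PSAH1 cross.

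The bases next to the annotated start of the genes are shown for the pairs whose shares moved most in hypocotyls, for the early gene PGR5 and, for contrast, for PSBQ2, which held the most motif matches of the 34. Sequences are from the RefSeq copy of TAIR10.1, up to 250 bases before the start and without any base that lies in another annotated gene. They lie at chr1:28554931-28555033 on the minus strand for PETE1, chr1:7043393-7043627 on the minus strand for PETE2, chr5:26453200-26453275 on the minus strand for LFNR1, chr1:6942375-6942624 on the plus strand for LFNR2, chr1:22444057-22444306 on the plus strand for FD2, chr2:2081860-2082109 on the minus strand for PGR5 and chr4:2673244-2673493 on the minus strand for PSBQ2. The window of FD1 lies within its neighbour AT1G10950 and is not shown. Capitals mark matches on either strand to any of 4 short motifs. The G-box motif, which factors of the bHLH and bZIP families are known to bind, was searched as CACGTG. The I-box motif, often present in light-responsive plant promoters, was searched as GATAAG. The box bound by nuclear factor Y was searched as CCAATC, and the evening element, known from genes under the circadian clock, by its core AATATCT.

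PETE1: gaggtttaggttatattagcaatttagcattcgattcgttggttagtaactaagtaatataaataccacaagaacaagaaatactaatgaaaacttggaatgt

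PETE2: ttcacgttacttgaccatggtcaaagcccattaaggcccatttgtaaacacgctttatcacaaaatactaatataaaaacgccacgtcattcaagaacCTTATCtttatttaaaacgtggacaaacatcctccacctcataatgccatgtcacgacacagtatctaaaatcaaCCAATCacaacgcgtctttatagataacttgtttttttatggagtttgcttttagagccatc

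LFNR1: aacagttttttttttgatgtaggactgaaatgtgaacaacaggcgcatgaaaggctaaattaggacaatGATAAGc

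LFNR2: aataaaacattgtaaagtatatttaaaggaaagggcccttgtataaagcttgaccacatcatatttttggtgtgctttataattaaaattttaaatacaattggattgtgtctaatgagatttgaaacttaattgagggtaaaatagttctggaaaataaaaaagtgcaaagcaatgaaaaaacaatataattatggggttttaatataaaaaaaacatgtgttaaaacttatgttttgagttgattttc

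FD2: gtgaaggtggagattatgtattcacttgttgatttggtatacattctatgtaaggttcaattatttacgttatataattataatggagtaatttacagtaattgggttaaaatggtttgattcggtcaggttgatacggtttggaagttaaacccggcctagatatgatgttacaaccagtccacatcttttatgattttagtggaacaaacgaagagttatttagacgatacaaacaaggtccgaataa

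PGR5: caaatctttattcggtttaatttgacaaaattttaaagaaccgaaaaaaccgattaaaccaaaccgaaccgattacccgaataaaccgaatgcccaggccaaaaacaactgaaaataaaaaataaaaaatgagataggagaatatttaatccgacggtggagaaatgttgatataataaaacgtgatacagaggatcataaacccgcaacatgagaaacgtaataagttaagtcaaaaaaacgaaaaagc

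PSBQ2: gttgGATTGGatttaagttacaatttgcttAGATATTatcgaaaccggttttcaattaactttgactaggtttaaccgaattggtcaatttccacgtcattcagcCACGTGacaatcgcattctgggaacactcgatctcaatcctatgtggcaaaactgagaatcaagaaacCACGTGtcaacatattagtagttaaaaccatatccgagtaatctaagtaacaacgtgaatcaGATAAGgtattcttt

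Over the full windows of 250 bases, 6 of 34 genes (17.6%) held CACGTG, against 6.57% of 26686 promoters of nuclear protein-coding genes. GATAAG was in 9 (26.5%, against 12.2%), CCAATC in 4 (11.8%, against 10.2%) and AATATCT in 4 (11.8%, against 10.1%), and no matches overlapped. None of the 4 motifs was in 19 of the 34 windows (55.9%, against 66.5%), among them those of FD1, FD2, PETE1, LFNR2 and PGR5. PETE2 held an I-box match and a CCAATC match where PETE1 held neither, and LFNR1 held an I-box match where LFNR2 held none. CACGTG was at 2 places each in PSBQ1, PSBQ2 and PSAH2 and also in PSBTN, PSAE2 and ATPD. A match is a run of letters, not a site shown to be bound, and 18 of the windows lie at least partly in a neighbouring gene.

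Genes with related tasks were counted from lists chosen with these data known. Of 17 nuclear genes of the NDH complex, which carries another route of cyclic flow, 13 were called higher in cotyledons after 6 h (16.9% of all genes tested were) and 16 in hypocotyls (14.2%). Their median change was 1.54 and 3.39, against 0.03 and 0.01 over all genes tested. PNSL3 (2.89), NDHU (2.73) and PNSB1 (2.35) changed most in cotyledons, and NDHL (5.01), NDHO (4.73) and NDHM (4.36) in hypocotyls. After 1 h 3 of the 17 genes were called higher in cotyledons (6.56% of all genes tested were). In hypocotyls it was 1 of the 17 (4.89%), near the share of all genes. Of 18 assembly factors, 10 were called higher in cotyledons and 15 in hypocotyls after 6 h, with medians of 1.04 and 1.93. The photosystem II assembly factors PSB28 (3.32 and 5.47) and PSB27 (1.71 and 3.75) were among the largest in cotyledons and hypocotyls, with CCB3 (2.01), for cytochrome b6f, in cotyledons and HCF136 (4.27), for photosystem II, in hypocotyls. Of 8 regulators, 6 and 8 were called higher, with medians of 1.55 and 3.17. PSBS, the sensor of lumen acidity in photoprotection, had changes of 3.09 and 6.33, TIC62, which tethers ferredoxin-NADP reductase, 2.11 and 3.22, and CURT1B, which bends thylakoid membranes, 1.71 and 3.40.

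Alternative carriers and isoforms were a mixed list. Of 11 listed, 10 passed the filter, and after 6 h 2 were called higher (16.9% of all genes tested were) and 1 lower (11%) in cotyledons, near the shares of all genes, and 5 higher in hypocotyls (14.2%), with medians of -0.06 and 1.01. PPL1, a relative of PSBP, changed by 1.6 and 3.74 in cotyledons and hypocotyls. The ferredoxin-like genes FDC2 (1.52, cotyledons) and FDC1 (2.74, hypocotyls) and CYTC6A (2.29, hypocotyls) were also called higher. RFNR1, a root-type ferredoxin-NADP reductase, was the gene called lower in cotyledons, with -1.25 (SE 0.15, adjusted p = 3.35e-07 by limma).

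In the authors' deposited table of Cuffdiff comparisons, the same limits called 9 of the 34 genes in cotyledons after 1 h (6.78% of 29764 genes tested), 31 after 3 h (14.1%), 32 after 6 h (16.2%) and 33 after 12 h (12.9%). For hypocotyls the authors' deposited table gave 1 gene after 15 min (0.635%), 3 after 30 min (2.3%), 26 after 1 h (5.18%), 32 after 3 h (12.7%), 32 after 6 h (15.4%) and 33 after 12 h (17.8%), all of them higher except 1 after 1 h.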

How the data were processed

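Poly(A) RNA-seq libraries of 14 groups, 2 biological replicates each, were used. Per the submitters' processing notes, reads passed through CASAVA 1.8.2, TopHat2 2.0.8, Cuffdiff 2.1.1 and Cuffnorm with TAIR10. The authors deposited FPKM values per gene, which Cuffnorm had scaled between libraries. No source used here names the scaling method. The authors' deposited table of Cuffdiff comparisons also gave log2 fold changes and q-values.

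The 18678 of 33557 genes whose mean FPKM reached 1 over all libraries were fitted with limma 3.58.1 (R 4.3.3) on log2(FPKM + 1), 1 mean per group, with trended, robust moderation. P-values were adjusted by Benjamini-Hochberg within each of 26 comparisons, and the fit was tested on simulated data. Calls needed an adjusted p below 0.05 together with a log2 change of 1 or more in size. Pair ratios were tested by exact 2-sided permutation (numpy 2.4.6).

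FPKM do not give depth, so relative depths were taken from the most frequent FPKM ratios between libraries among 1491 low genes. After a step of 1 read was fitted to each gene, 92.35% of 5531 values lay within 0.1 of its whole multiples. Evenly spread values would give 20% without such a fit, so these shares are not strictly comparable. Intervals from counting were not computed. The 34 genes and the lists of related genes were chosen with earlier results of these data known. All 34 are named by role. Values in every library are given for the 16 genes in pairs and for those with the largest or smallest change of a role after 6 h, and up to 3 called genes are named per related list. Alternatives were another pseudocount (0.1), no filter, quantile normalization, rescaling to nuclear coding genes of at least 500 nt, a replicate block, no minimum change, the authors' Cuffdiff calls and leaving out each library.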

Additional observations from a re-analysis of the deposited data

Results flagged for a closer look

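The response to light differed between the tissues by a test of the difference itself in limma, hypocotyl change minus cotyledon change. In either direction the difference was called for 1 of the 34 genes after 15 min (0.503% of all genes tested), 2 after 30 min (2.41%) and 7 after 1 h (9.9%). It was called for 28 after 3 h (29%), 27 after 6 h (36.9%) and 32 after 12 h (33.8%).

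In 3 genes the fitted changes from darkness had opposite signs in the tissues where the difference was called. PETE1 differed by -1.16 after 1 h, -1.82 after 3 h and -2.14 after 6 h. LFNR2 differed by -1.81 after 1 h and -1.05 after 3 h. ATPG differed by 1.12 after 1 h. Most of the negative changes did not pass the test of their own. By limma the hypocotyl change of PETE1 was -0.31 after 1 h (adjusted p = 0.068), -0.21 after 3 h (0.147) and -0.40 after 6 h (0.00757, under the minimum change), that of LFNR2 -0.23 after 3 h (0.293), and the cotyledon change of ATPG -0.03 after 1 h (0.868). The hypocotyl change of LFNR2 after 1 h, -1.26, was called, and its cotyledon change, 0.55, was not.

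The log2 ratio of the copies of a pair differed between hypocotyls and cotyledons by the exact permutation test in 5 pairs. The difference was 1.52 for PSBO1 to PSBO2, 0.341 for PSBQ1 to PSBQ2, 0.694 for PSAD1 to PSAD2, -1.08 for PSAE1 to PSAE2 and 0.731 for PETE1 to PETE2. Without overlap, PETE1 to PETE2 lay higher in hypocotyls at 4 times and lower at 3, and PSBQ1 to PSBQ2 higher at 5 and lower at 1. The calls of these pairs were lost with either replicate alone.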

How the results depend on the processing

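Of 612 changes of single genes recomputed under alternatives (6732 values), 6562 kept their direction and side of the threshold, 86 lost the call, 84 gained it and 0 reversed. Groups of 2 libraries, FPKM without counts and an unknown scaling method limit the results, and a p that missed the threshold does not show that levels were alike.

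Counts of called genes that moved over 1.5 times are given here, and the cause was not tested. After quantile normalization they were 1 in cotyledons after 30 min, 3 after 1 h and 16 after 3 h, 0 for the tissue difference after 15 min and 12 after 1 h, 1, 0 and 1 in the cotyledon steps to 3 h, 6 h and 12 h, and 4 in the hypocotyl step to 6 h. Rescaled to nuclear coding genes they were 20 in cotyledons after 3 h, 1 and 0 in the cotyledon steps to 3 h and 6 h, and 2 in the hypocotyl step to 6 h.

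Without a minimum change, which admits smaller changes by construction, the counts were 2 and 31 in cotyledons after 30 min and 1 h, 7 and 16 in hypocotyls after 15 min and 30 min, 2, 5 and 17 for the tissue difference after 15 min, 30 min and 1 h, 32, 28 and 5 in the cotyledon steps, and 22 and 30 in the hypocotyl steps to 6 h and 12 h.

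Leaving out 1 library gave 3 to 15 genes in cotyledons after 1 h, 0 to 1 for the tissue difference after 15 min, 3 to 18 and 0 to 1 in the cotyledon steps to 3 h and 12 h, and 0 to 2 and 3 to 7 in the hypocotyl steps to 6 h and 12 h. The difference between tissues was 0.313 without replicate A and 0.369 without replicate B for PSBQ1 to PSBQ2 (exact permutation adjusted p = 0.125 each), and 0.719 and 0.743 for PETE1 to PETE2 (0.35 each), with fewer arrangements.

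Over all genes tested, libraries with the same replicate letter showed little shared deviation (r from -0.112 to 0.163 over 91 pairs of groups, median 0.0053). Whether replicates of the 2 tissues were paired within a time was not tested. The median log2 gap of the 34 genes, replicate B minus A, had the same sign in both tissues at every time. In cotyledons and hypocotyls it was 0.343 and 0.145 after 1 h and -0.185 and -0.00931 after 3 h. A replicate block, 1 shift shared by all groups, cannot decide this. With a replicate block, 9, 31, 32 and 33 genes were called in cotyledons from 1 h to 12 h and 24, 32, 32 and 33 in hypocotyls, and no call of a single gene changed. The number of genes highest after 12 h in cotyledons, 25, was 29 without 12 h replicate A and 10 without replicate B, recounted after seeing the data. The authors' deposited table gave 2 more calls of single genes.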
